A study of Mus musculus with 6 samples.

Results

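The genes described here serve protein folding and stress signalling in the endoplasmic reticulum (ER), the compartment in which secreted and membrane proteins are made. They are 35 genes listed by name, read from the probe sets that the platform annotation ties to exactly 1 gene symbol. All 35 were measured, out of 18193 genes in all, by 85 probe sets. Each gene is represented by its probe set with the highest mean log2 signal over the 6 arrays. By the arm of the unfolded protein response they are best known for, 16 genes form an ATF6 and chaperone branch, 12 an IRE1 and ER-associated degradation (ERAD) branch, and 7 a PERK and ATF4 branch. These branches overlap in biology, since many chaperone genes answer to both ATF6 and XBP1, so the assignment is a convention.

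Unfolded protein in the ER is sensed by 3 membrane proteins, ATF6, IRE1 (encoded by Ern1) and PERK (encoded by Eif2ak3). Cleaved ATF6 and the spliced form of XBP1, which IRE1 produces, induce chaperones, disulfide isomerases and the machinery that returns misfolded protein to the cytosol for degradation. PERK slows translation and thereby raises ATF4, which induces amino acid synthesis, Ddit3 and feedback regulators. In the aortic root these systems carry a steady load of collagens, elastin and proteoglycans made by valve interstitial and smooth muscle cells. Arrays report transcript levels, so neither ATF6 cleavage, XBP1 splicing nor PERK activity was measured.

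The comparison set mice carrying 2 mutant copies of the klotho gene (klotho-deficient) against mice with 2 wild-type copies. Both groups were C57BL/6J albino mice aged 6.0 to 6.5 weeks. Each of 3 arrays per genotype held RNA from the pooled aortic roots of 3 mice, the dissected piece taking in the leaflets, the annulus and some wall of the ascending aorta. The pools hide the spread between single animals. It is not known here where the klotho probe sets lie relative to the mutation, so they were not used to check the labels.

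Values are linear array intensities as deposited, scaled to one trimmed mean on every array. Each difference is a log2 value, the klotho-deficient mean minus that of wild type, with its SE from limma. Background was set by 27 Bacillus control probe sets, the highest of which read 161.8. Of the 35 genes, Derl3 alone had no probe set above that level on any array (29.4 to 70.5 in klotho-deficient and 13.7 to 107.7 in wild-type roots), so it is counted below but its difference is not interpreted. In bulk tissue, fewer cells of a type and less RNA per cell cannot be told apart.

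Several members carry the ER stress response element (ERSE) close to their start site. ERSE is the bipartite motif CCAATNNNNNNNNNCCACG, at which NF-Y binds the first part and ATF6 or XBP1 the second. Promoters were taken from RefSeq (GRCm38.p6), from 250 bases before to 50 bases after each start, and matched 30 of the 35 genes. Manf, Hyou1, Atf6, Derl1 and Sec61a1 had no promoter there and were not searched. On either strand, 9 of the 30 matched genes held an exact ERSE, compared with 39 of 32851 promoters in the table (0.12%). The members were listed for their part in ER folding and stress signalling, so this contrast describes the list and is not a test. It also sets genes against promoters. Of the 9, 7 belong to the ATF6 and chaperone branch, where 13 promoters were read, and 2 to the IRE1 and ERAD branch, where 10 were read. None of the 7 promoters of the PERK and ATF4 branch held one. Of the 4 motifs searched, ERSE was the one held by most members, so its matches are shown, each read along the strand on which the motif runs 5′ to 3′ and its fixed bases in capitals. Positions count from the start site, the base before it being -1.
Hspa5, bases -65 to -47: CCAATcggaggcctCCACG
Calr, bases -162 to -144: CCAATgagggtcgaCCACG
Derl3, bases -156 to -138: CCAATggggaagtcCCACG
Hsp90b1 (upstream copy), bases -212 to -194: CCAATcgcaaggagCCACG
Hsp90b1 (downstream copy), bases -107 to -89: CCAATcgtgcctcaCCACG
Canx, bases -145 to -127: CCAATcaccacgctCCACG
Pdia6, bases -98 to -80: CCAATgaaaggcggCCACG
Dnajc3, bases -105 to -87: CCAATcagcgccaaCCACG
Creld2, bases -126 to -108: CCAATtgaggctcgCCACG
Syvn1, bases -44 to -26: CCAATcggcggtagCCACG

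Of the 9 genes with an ERSE, 4 (Creld2, Pdia6, Hspa5 and Calr) were lower in klotho-deficient roots without overlap, against 6.84% of all genes. Full promoters are given for the 3 of these with an unadjusted p under 0.05, which leaves out Calr, and for Chac1, which was higher without overlap. Fixed motif bases are in capitals. In Creld2, Pdia6 and Hspa5 they mark the ERSE. In Chac1 they mark the C/EBP-ATF response element (TGATGNAAN), at which ATF4 with a C/EBP partner is known to act.
Creld2, chr15:88819396-88819695, plus strand: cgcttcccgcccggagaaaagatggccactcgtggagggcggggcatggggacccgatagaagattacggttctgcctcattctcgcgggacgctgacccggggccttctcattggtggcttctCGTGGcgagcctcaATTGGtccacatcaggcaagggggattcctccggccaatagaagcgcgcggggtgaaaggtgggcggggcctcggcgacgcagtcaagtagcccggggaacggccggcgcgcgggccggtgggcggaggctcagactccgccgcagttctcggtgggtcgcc
Pdia6, chr12:17266339-17266638, plus strand: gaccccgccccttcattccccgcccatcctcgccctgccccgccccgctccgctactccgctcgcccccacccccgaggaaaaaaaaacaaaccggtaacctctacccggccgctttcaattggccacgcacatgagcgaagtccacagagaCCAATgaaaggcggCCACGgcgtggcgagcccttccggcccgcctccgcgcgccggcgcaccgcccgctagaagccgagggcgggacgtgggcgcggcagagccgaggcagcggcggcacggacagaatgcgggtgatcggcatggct
Hspa5, chr2:34771840-34772139, plus strand: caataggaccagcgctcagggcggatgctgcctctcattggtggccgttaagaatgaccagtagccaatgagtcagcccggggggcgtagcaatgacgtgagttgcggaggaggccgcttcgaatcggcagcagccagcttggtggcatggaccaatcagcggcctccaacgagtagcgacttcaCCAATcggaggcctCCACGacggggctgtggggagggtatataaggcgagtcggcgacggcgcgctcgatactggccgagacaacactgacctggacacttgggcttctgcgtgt
Chac1, chr2:119350992-119351291, plus strand: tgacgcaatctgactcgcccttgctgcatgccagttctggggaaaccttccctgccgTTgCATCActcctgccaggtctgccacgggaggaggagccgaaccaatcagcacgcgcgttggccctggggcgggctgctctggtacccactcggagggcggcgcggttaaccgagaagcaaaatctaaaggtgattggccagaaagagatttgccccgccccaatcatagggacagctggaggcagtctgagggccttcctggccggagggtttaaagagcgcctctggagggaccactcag

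Across all 18193 genes, limma called 0 at an adjusted p under 0.05 (0.0%), with 575 genes lower (3.16%) and 591 higher (3.25%) at an unadjusted p under 0.05. None of the 35 members passed over all genes. The members are therefore described by size, by the spread between arrays and by counts read against all genes. Of the 35, 27 had a lower mean log2 signal in klotho-deficient roots and 8 a higher one, Derl3 being among the 8. Their median difference was -0.13, against 0.00 over all genes. In 11 members every klotho-deficient array lay below every wild-type array (31.4%, against 6.84% of all genes). In 1 member, Chac1, every klotho-deficient array lay above (2.86%, against 6.63% of all genes). At an unadjusted p under 0.05, 6 members were lower and 1 was higher. Most members are bright, and among the 2633 genes with a mean signal above 5000 the share whose klotho-deficient arrays all lay below was 11.4%.

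Of the 27 lower members, 15 were in the chaperone branch, 7 in the IRE1 and ERAD branch and 5 in the PERK and ATF4 branch. The 16 chaperone branch genes had a median difference of -0.35, with 15 lower and 1 (Atf6) higher. Of the 16, 10 had klotho-deficient arrays all below wild type (62.5%, against 6.84% of all genes). All 6 members lower at an unadjusted p under 0.05 (Creld2, Manf, Pdia6, Sdf2l1, Hyou1 and Hspa5) were in this branch. The IRE1 and ERAD branch had a median of -0.04, with 7 of 12 lower and 1 (Derl2) entirely below (8.33%, near the share of all genes). The PERK and ATF4 branch had a median of -0.08, with 5 of 7 lower and 0 entirely below. The difference between branches was not tested.

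**Figure D1:**
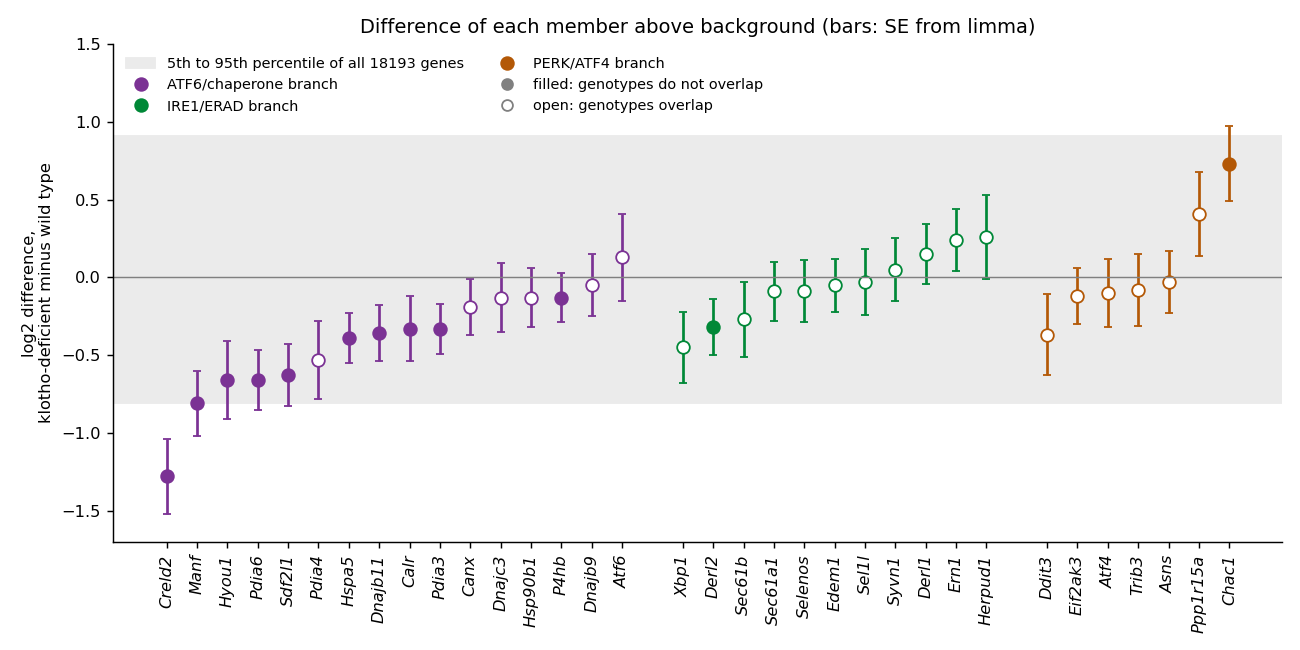
Log2 difference, klotho-deficient minus wild type, for the 34 members above background (points, with the SE from limma), grouped by branch and ordered by size, over a grey band from the 5th to the 95th percentile of all 18193 genes (-0.81 to 0.91). Filled points are members whose genotypes do not overlap; 10 of them lie in the chaperone branch, and Creld2 at -1.28 lies furthest below 0.

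Creld2 and Manf had the lowest differences of all members. Creld2, an ER stress protein with disulfide isomerase activity, measured 2730.6, 3062.2 and 3621.1 in klotho-deficient roots, against 6502.8, 6810.5 and 9836.3 in wild-type roots. Every klotho-deficient array was below the lowest wild-type array, and the genotype means lay 2.43-fold apart (-1.28 ± 0.24, adjusted p = 0.626). Manf, a secreted protein that binds the chaperone BiP, measured 5509.1, 5781.5 and 6375.7 in klotho-deficient roots, against 9766.5, 8871.2 and 12745.3 in wild-type roots. Its genotypes were also apart, 1.76-fold (-0.81 ± 0.21, adjusted p = 0.67). In both genes wild-type replicate 3 was the highest array, and without it the differences were -1.09 for Creld2 and -0.66 for Manf.

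Sdf2l1, a partner of the co-chaperone ERdj3, measured 999.9, 902.8 and 1135 in klotho-deficient roots, against 1443.4, 1406.4 and 1855.1 in wild-type roots. The gap between genotypes was 1.54-fold (-0.63 ± 0.20, adjusted p = 0.723), again with wild-type replicate 3 on top. Hyou1, a large Hsp70-family protein that exchanges nucleotide on BiP, measured 2010.7, 2396.3 and 3336 in klotho-deficient roots, against 3527.2, 3840.8 and 4640.8 in wild-type roots. Klotho-deficient replicate 3 came close to the lowest wild-type array without reaching it (-0.66 ± 0.25, adjusted p = 0.763). The other Hyou1 probe sets gave -0.35 with overlap and -0.88 without.

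**Figure D2:**
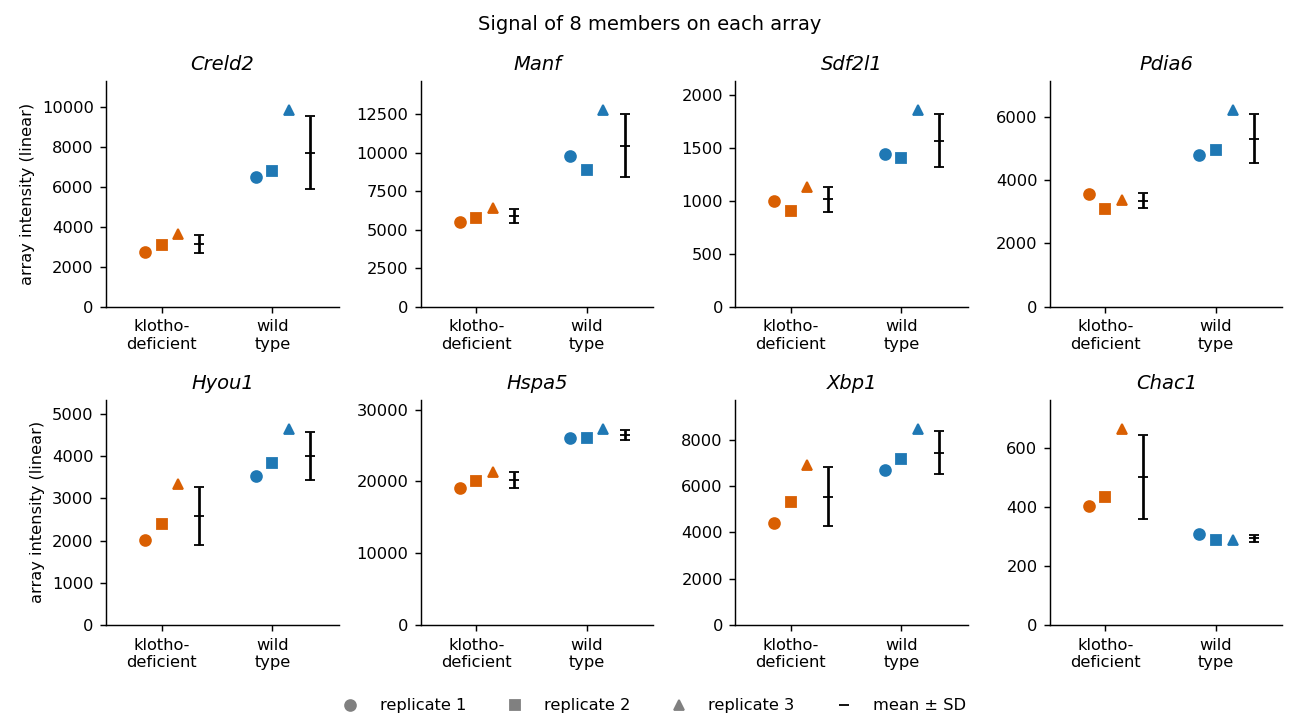
Linear array intensity of 8 members on each klotho-deficient (orange, left) and wild-type (blue, right) array, marked by replicate, with the mean and SD of 3 arrays in black. Klotho-deficient points lie below all wild-type points for Creld2, Manf, Sdf2l1, Pdia6, Hyou1 and Hspa5, overlap them for Xbp1 and lie above them for Chac1.

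The major Hsp70 of the ER was separate between genotypes and the major Hsp90 was not. Hspa5, the chaperone BiP that also holds the 3 stress sensors inactive, measured 19105.8, 20049.7 and 21298.8 in klotho-deficient roots, against 26059.3, 26027.4 and 27309.4 in wild-type roots. The genotypes were separate and each was tight, with a difference of 1.31-fold (-0.39 ± 0.16, adjusted p = 0.77). Its other probe sets gave -0.49, also without overlap, and -0.16 with overlap. Hsp90b1, the ER Hsp90 known as GRP94, overlapped, at 24754.5 to 33404.9 in klotho-deficient roots and 30216 to 32512.6 in wild-type roots (-0.13 ± 0.19). By this exact search, Hspa5 holds 1 ERSE and Hsp90b1 holds 2.

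The 4 members of the protein disulfide isomerase family (Pdia3, Pdia4, Pdia6 and P4hb) form and rearrange disulfide bonds, and Pdia6 had the lowest difference of these. Pdia6 measured 3565.1, 3096.4 and 3366.5 in klotho-deficient roots, against 4786.4, 4940.5 and 6200.6 in wild-type roots (-0.66 ± 0.19, adjusted p = 0.67). Its other, dimmer probe set gave -0.49, with overlap. Pdia4 measured 3333.2, 3000.3 and 4940 in klotho-deficient roots, against 4738.1, 5087.5 and 6234.3 in wild-type roots. It had 1 klotho-deficient array, replicate 3, inside the wild-type range (-0.53 ± 0.25), and without that array the difference was -0.75. Pdia3, which works with the lectin chaperones on glycoproteins, measured 19566.4, 20115 and 20445.2 in klotho-deficient roots, against 26214, 23101.6 and 26367.5 in wild-type roots. Its genotypes did not overlap on either probe set, with differences of -0.33 and -0.76. P4hb, both a disulfide isomerase and the beta subunit of collagen prolyl 4-hydroxylase, measured 20061.6, 19184.3 and 21843 in klotho-deficient roots, against 22570.5, 21937.8 and 22404.9 in wild-type roots. That gap was small and narrowly without overlap (-0.13 ± 0.16).

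The lectin chaperones calreticulin and calnexin hold newly made glycoproteins until they fold. Calr measured 12758.7, 16581.7 and 18873.4 in klotho-deficient roots, against 19204.7, 21585.9 and 19273.3 in wild-type roots. Klotho-deficient replicate 1 was the lowest and replicate 3 lay just under wild type, with a difference of -0.33 ± 0.21 on all arrays and -0.18 without replicate 1. The other Calr probe sets gave -0.37 without overlap and -0.46 with overlap. Canx overlapped, at 9898.3 to 12148.1 in klotho-deficient roots and 11039.2 to 13071.4 in wild-type roots (-0.19 ± 0.18).

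Of the J-domain co-chaperones, which stimulate BiP, Dnajb11 was separate between genotypes. Dnajb11 (ERdj3) measured 8813.6, 9636.4 and 11473.9 in klotho-deficient roots, against 11971.5, 12456.8 and 13760.3 in wild-type roots, without overlap (-0.36 ± 0.18). Dnajb9 (ERdj4) was 9989.7 to 14211.2 in klotho-deficient roots and 11971.5 to 13539.5 in wild-type roots, so that klotho-deficient values lay on both sides of wild type (-0.05 ± 0.20). Dnajc3, which encodes the co-chaperone p58IPK, was 8431.7 to 9864 in klotho-deficient roots and 7773.6 to 11376 in wild-type roots (-0.13 ± 0.22). The sensor gene Atf6 itself measured 2494.5, 1633.1 and 3145.4 in klotho-deficient roots, against 2166.6, 1978.2 and 2259.4 in wild-type roots. Its klotho-deficient arrays spread more widely than its wild-type arrays and spanned them (0.13 ± 0.28), and the sign turned without klotho-deficient replicate 3 (-0.08).

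**Figure D3:**
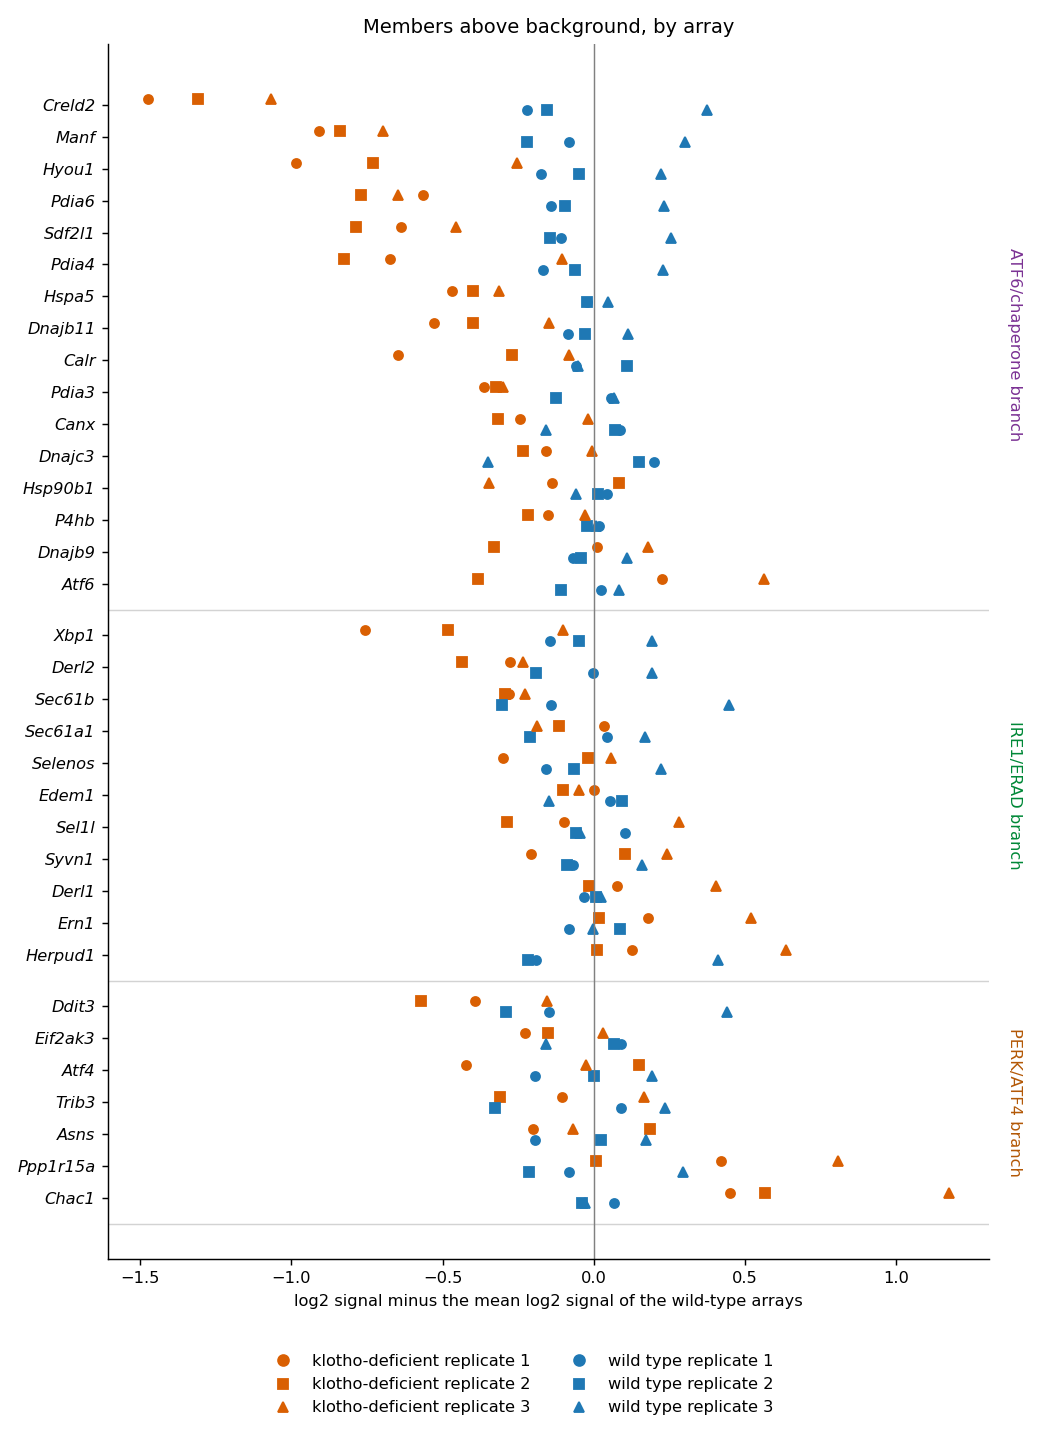
Log2 signal of the 34 members above background on each klotho-deficient (orange, upper row of each gene) and wild-type (blue, lower row) array, relative to the mean of the wild-type arrays, with replicates by marker shape. In the chaperone branch the orange points lie left of all blue points in 10 genes, whereas in the other branches they mostly interleave, with Chac1 to the right.

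In the IRE1 and ERAD branch the sensor and its target factor stood on opposite sides of 0. Xbp1, the transcription factor whose messenger RNA is spliced by IRE1, measured 4385.6, 5307.4 and 6907.8 in klotho-deficient roots, against 6700.2, 7171.3 and 8467.9 in wild-type roots. Only klotho-deficient replicate 3 lay inside the wild-type range (-0.45 ± 0.23, adjusted p = 0.8), and the difference was -0.29 without klotho-deficient replicate 1. The other 3 Xbp1 probe sets gave -0.34 and -0.50, both without overlap, and -0.56 with overlap. Whether a probe set reads the spliced or the unspliced form is not known here. Ern1, which encodes IRE1, measured 2567.9, 2296.1 and 3251.5 in klotho-deficient roots, against 2140.7, 2410.1 and 2261.8 in wild-type roots. The ranges overlapped (0.24 ± 0.20), and the 4 other Ern1 probe sets gave 0.23 to 0.41, with all klotho-deficient arrays above wild type on 1 of them.

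ERAD genes mostly overlapped between genotypes. Derl2, a derlin of the membrane channel through which misfolded proteins leave the ER, measured 7431.6, 6644.5 and 7649.2 in klotho-deficient roots, against 8980.6, 7884.3 and 10282.5 in wild-type roots. On the probe sets that represent the genes, Derl2 was the 1 gene of the branch without overlap (-0.32 ± 0.18). Its other probe set gave -0.06 with overlap. Its relative Derl1 gave 0.15 ± 0.19 and the probe sets of Derl1 disagreed, from -0.29 (without overlap) to 0.28 (with overlap). Herpud1, a membrane protein that recruits the degradation complex, was 2106.9 to 3248.7 in klotho-deficient roots and 1798.6 to 2780.5 in wild-type roots (0.26 ± 0.27). The ubiquitin ligase Syvn1 (0.05 ± 0.20), its adaptor Sel1l (-0.03 ± 0.21) and the mannosidase-like Edem1 (-0.05 ± 0.17), which marks misfolded glycoproteins, lay near 0.

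The translocon through which new chains enter the ER was flat to slightly lower. Sec61a1, its channel subunit, was 18388.6 to 21477.2 in klotho-deficient roots and 18105 to 23561 in wild-type roots (-0.09 ± 0.19). Sec61b, a small subunit, was 8429.1 to 8817.9 in klotho-deficient roots and 8355.6 to 14072 in wild-type roots, where replicate 3 made the highest value (-0.27 ± 0.24, and -0.04 without that array). Selenos, a selenoprotein that binds derlins, gave -0.09 ± 0.20.

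The PERK and ATF4 branch held the highest member difference, in Chac1. Eif2ak3, the gene of the PERK kinase, measured 1048.6, 1105.5 and 1252.8 in klotho-deficient roots, against 1306.6, 1286.3 and 1100 in wild-type roots. Atf4, the transcription factor of this branch, measured 14871, 22099.9 and 19601.4 in klotho-deficient roots, against 17450.8, 19960.5 and 22774.4 in wild-type roots. Both overlapped (-0.12 ± 0.18 for Eif2ak3 and -0.10 ± 0.22 for Atf4). Atf4 is controlled mainly through translation, so its transcript level does not report its protein.

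Genes downstream of ATF4 lay on both sides of 0. Ddit3, the pro-apoptotic factor CHOP, measured 1782.8, 1577.8 and 2104.9 in klotho-deficient roots, against 2114.7, 1914.9 and 3176.6 in wild-type roots. Klotho-deficient replicate 3 lay inside the wild-type range (-0.37 ± 0.26), and without wild-type replicate 3 the difference was -0.15. Chac1, an enzyme that degrades glutathione and is induced through ATF4, measured 403, 436.5 and 666 in klotho-deficient roots, against 308.7, 287.2 and 288.9 in wild-type roots. Every klotho-deficient array was above all 3 wild-type arrays, which were tight, and the mean difference was 1.66-fold (0.73 ± 0.24, adjusted p = 0.723). Ppp1r15a, which encodes the phosphatase subunit GADD34 that reverses PERK's effect, was 634.1 to 1102.4 in klotho-deficient roots and 543.3 to 773.7 in wild-type roots, with overlap (0.41 ± 0.27, and 0.21 without klotho-deficient replicate 3). The pseudokinase gene Trib3 (-0.08 ± 0.23) and the asparagine synthetase gene Asns (-0.03 ± 0.20), both ATF4 targets, lay near 0.

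The branches were also compared over every probe set of the members. Of all 85, 80 were above background on every array. In the chaperone branch 28 of 33 such probe sets were lower and 14 had klotho-deficient arrays all below wild type, with a median of -0.33. The share entirely below was not computed over all probe sets of the series. Over the 13322 genes with a mean signal above background, read from 1 probe set each, it was 7.86%. The IRE1 and ERAD branch had 19 of 34 lower (median -0.03), with 4 entirely below and 1 entirely above. The PERK and ATF4 branch had 7 of 13 lower (median -0.03), with 0 entirely below and 1 entirely above. Of 24 genes with more than 1 such probe set, 12 had all of them lower, 3 all higher and 9 on both sides of 0 or at 0. The genes with mixed signs were Asns, Atf4, Derl1, Dnajc3, Eif2ak3, Herpud1, Sec61a1, Sel1l and Trib3. Probe sets of 1 gene share the same RNA and are not replicates.

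**Figure D4:**
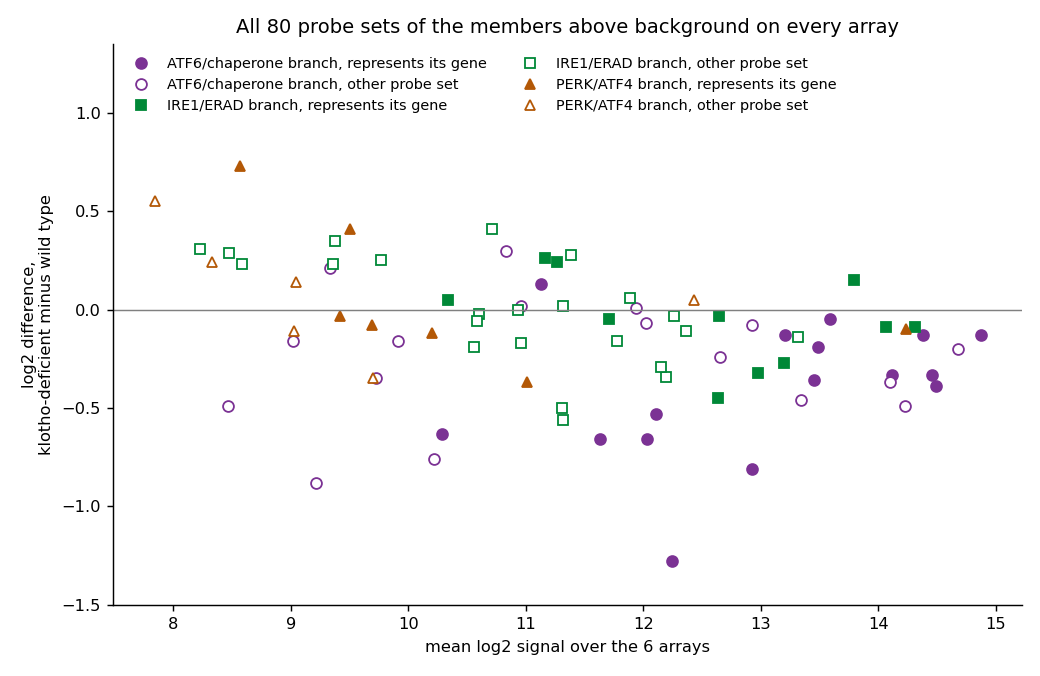
Log2 difference, klotho-deficient minus wild type, against mean log2 signal for the 80 probe sets of the members above background on every array; filled symbols represent their gene and open symbols are its other probe sets. Chaperone probe sets (purple circles) are mostly below 0 at all signal levels, 28 of 33, whereas those of the other branches scatter around 0.

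Members with and without an exact ERSE overlapped widely in their differences. The 9 members with an ERSE had a median difference of -0.19 and ran from -1.28 (Creld2) to 0.22 (Derl3, below background), and 4 of them had klotho-deficient arrays all below wild type. The 21 members with a promoter and no exact ERSE had a median of -0.10, ran from -0.63 (Sdf2l1) to 0.73 (Chac1), and 5 were entirely below. Over all genes, 6.84% were entirely below. Members without a promoter, in neither group, were Manf (-0.81), Hyou1 (-0.66), Sec61a1 (-0.09), Atf6 (0.13) and Derl1 (0.15). Outside the members, 11 measured genes had an ERSE, with 6 lower and 5 higher and a median of -0.08. Of these 11, 2 were entirely below and 1 entirely above, against 6.84% and 6.63% of all genes. The shorter ERSE-II (ATTGGNCCACG) was found in Dnajb11 and Herpud1 and in 0.04% of all promoters. The UPR element (TGACGTGG) was in 0 member promoters and 0.68% of all. The C/EBP-ATF response element was in Chac1, Trib3, Asns and Herpud1, and in 3.95% of all promoters; these 4 members ran from -0.08 to 0.73. These motifs were searched on both strands, and a match shows only that the letters are present.

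**Figure D5:**
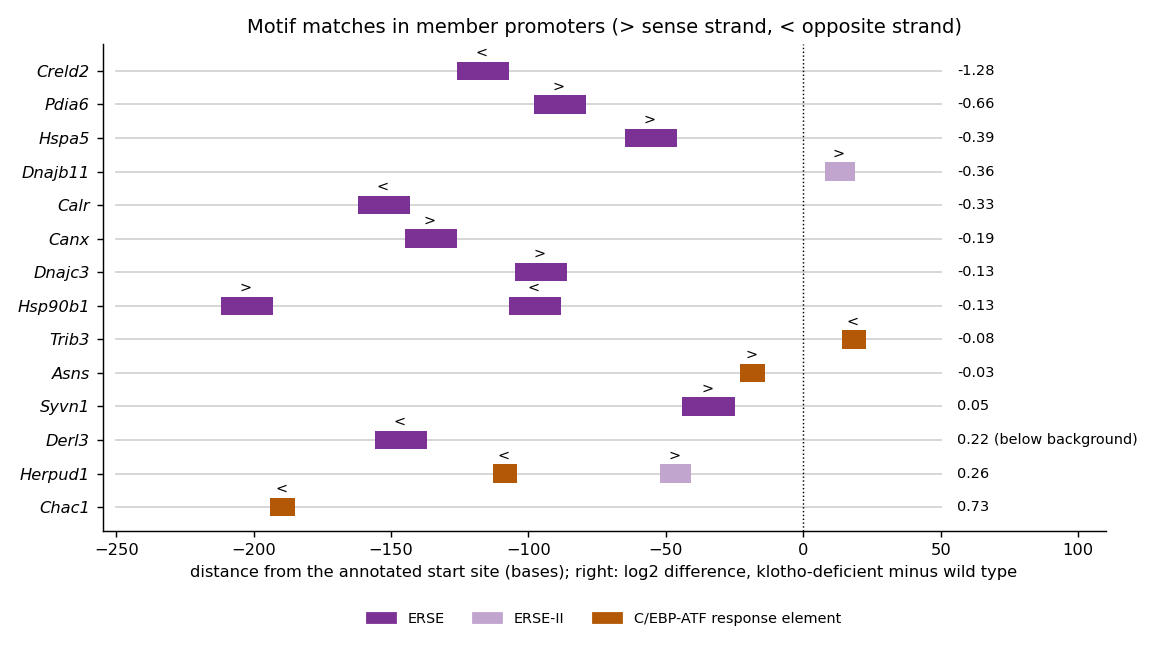
Motif matches (coloured blocks) along the promoters of the 14 members that hold one, against distance in bases from the annotated start site, ordered from the lowest to the highest difference, which is printed at the right as klotho-deficient minus wild type. ERSE blocks lie between 212 and 26 bases before the start site, in genes from Creld2 at -1.28 to Syvn1 at 0.05 and the dim Derl3.

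Other genes of the same pathways were read for context. Of 58 measured genes for ER folding, quality control and export outside the members, 41 were lower and 17 higher (median -0.14). Among them 9 were entirely below (15.5%, against 6.84% of all genes) and 4 entirely above (6.9%, against 6.63%). At an unadjusted p under 0.05, 0 were higher (against 3.25% of all genes) and 1 was lower (against 3.16%). That gene was Atf6b, a relative of Atf6, at 674.3, 436.7 and 615.5 in klotho-deficient roots, against 1400.8, 846.2 and 1014.6 in wild-type roots (-0.91 ± 0.28). The next genes by p pointed opposite ways, namely Crebrf, a regulator of the CREB3 family (0.45 ± 0.20), and the oxidase gene Ero1b (-0.45 ± 0.20, but 0.21 with the median of its probe sets). Both had genotypes without overlap. Of 29 measured genes of the PERK and ATF4 pathway outside the members, 15 were lower and 14 higher (median -0.01). Among them 2 (Cth and Psph) were higher and 1 (Atf5) lower at an unadjusted p under 0.05. In that list 1 was entirely below (3.45%, against 6.84% of all genes) and 2 entirely above (6.9%, against 6.63%). Psph, of serine synthesis, was 1424.4 to 2269.8 in klotho-deficient roots and 914.6 to 1192 in wild-type roots (0.70 ± 0.25). Atf5, a factor induced in parallel with ATF4, was 7691.7 to 10597.7 in klotho-deficient roots and 13433.7 to 14577 in wild-type roots (-0.65 ± 0.19). Cth, of cysteine synthesis, was dim, above background on klotho-deficient replicates 1 and 2 (224.3 and 176.4) and on no wild-type array.

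The cytosolic chaperones also mostly had lower means. Of 18 measured cytosolic chaperone genes, 15 were lower and 3 higher (median -0.23), and 5 were entirely below (27.8%, against 6.84% of all genes) and 0 entirely above (against 6.63%). Hsph1, an Hsp110 of the cytosol, measured 9399.4, 7235 and 7462.3 in klotho-deficient roots, against 15531.1, 13717.8 and 20731.8 in wild-type roots (-1.04 ± 0.23), and the co-chaperones Fkbp4 and Cacybp gave -0.49 ± 0.20 and -0.42 ± 0.18. Among 13 measured helpers of procollagen folding, 10 were lower and 3 higher (median -0.12). Of these, 2 (P4ha1 and Serpinh1) were entirely below (15.4%, against 6.84% of all genes) and 1 (P4ha3) entirely above (7.69%, against 6.63%). The prolyl hydroxylase subunits P4ha1 and P4ha3, partners of P4hb, lay on opposite sides of 0 (-0.71 ± 0.17 and 1.14 ± 0.47), P4ha3 at 0.69 without klotho-deficient replicate 3, 0.74 with array weights and 0.19 with Y-linked signal as a covariate, and the collagen chaperone Serpinh1 gave -0.44 ± 0.16. None of these genes passed over all genes in limma, and whether the ER list differs from these lists was not tested.

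Some arrays stood apart in ways that touch these values. Within its own genotype, replicate 3 was the highest array for 28 of the 35 members in klotho-deficient roots and for 24 in wild-type roots. Such counts were not made over all genes, so they cannot be read as particular to the members. Wild-type replicate 3 also had a Gapdh 3′ to 5′ signal ratio of 7.18, against 3.23 to 4.08 on the other 5 arrays. Its Actb ratio did not stand apart, at 1.1 against 1.07 to 1.18 on the other 5. The median over the chaperone branch, relative to wild type, was -0.50, -0.39 and -0.20 on klotho-deficient replicates 1, 2 and 3, and -0.06, -0.05 and 0.10 on wild-type replicates 1, 2 and 3. The genotypes thus did not overlap in this median, and the branch difference was -0.33 without wild-type replicate 3 and -0.41 without replicate 3 of either genotype. Y-linked genes read 115 and 124.2 in sum on klotho-deficient replicates 2 and 3 and 7191.8 to 9156.4 on the other arrays, so sex composition differed between pools. The female marker Xist read 19873.8 to 36290.2 in klotho-deficient and 20581.7 to 22337.6 in wild-type roots, so arrays with Y-linked signal carried both. Klotho-deficient replicate 1, which carried Y-linked transcripts as the wild-type arrays did, was the lowest of its genotype for 14 members and replicate 2 for 19. These counts too were not made over all genes. With Y-linked signal as a covariate the chaperone median was -0.50 and Chac1 was 0.45. Within a genotype, Y-linked signal differed mainly between klotho-deficient replicate 1 and klotho-deficient replicates 2 and 3. The values with this covariate therefore rest largely on klotho-deficient replicate 1 against wild type, so they cannot separate sex from that single array.

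Marker genes of the tissue were read for cell makeup. Summed signals of 7 fibroblast and valve interstitial markers (237239.2 to 308313.2 in klotho-deficient and 269939.4 to 297332.4 in wild-type roots) and of 4 smooth muscle markers (117021.3 to 166383.4 in klotho-deficient and 132118.7 to 147295.5 in wild-type roots) overlapped between genotypes. Of 6 plasma cell markers, a cell type rich in ER chaperones, 3 were lower and 3 higher. Their sum was 6622.1 to 13961 in klotho-deficient and 8314.9 to 11610.8 in wild-type roots, but was nearly all Sdc1 (6008 to 13289.1 in klotho-deficient and 7603.5 to 10667.2 in wild-type roots), which epithelial cells also express. Jchain, Mzb1, Tnfrsf17 and Cd79a, which are more specific, were dim. Jchain was below background on every array (0.39 ± 0.17), and Mzb1 on every klotho-deficient array and 1 wild-type array (-0.34 ± 0.37). Tnfrsf17 was below it on 2 klotho-deficient arrays and 0 wild-type arrays (-0.85 ± 0.42), and Cd79a on 2 arrays of each genotype (-0.77 ± 0.81). Prdm1 was above background on every array and higher in klotho-deficient roots, with overlap (0.52 ± 0.36). The sum of 4 endothelial markers was 12021.4 to 13978.4 in klotho-deficient roots and 14286.6 to 23469.2 in wild-type roots, with 3 of 4 lower. For 4 mesothelial and epithelial markers it was 14953 to 27119.2 in klotho-deficient roots and 26624.3 to 45100.6 in wild-type roots, with 4 of 4 lower, and both sums were highest on wild-type replicate 3. Cartilage markers, 6 in the list, summed to 3971.3, 10619.1 and 17780.9 on klotho-deficient replicates 1, 2 and 3, and to 4065 to 6134 in wild-type roots. The part of cell makeup, RNA quality and sex in the ER gene differences was not tested.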

How the data were processed

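Transcript levels were measured on Affymetrix mouse arrays, with 1 intensity per probe set for 45101 probe sets. The deposited intensities are linear and had been scaled by the authors to a common trimmed mean, as read from the values; RMA is named in the submitters' processing notes, without version, and how the linear scale arose is not stated there. RNA was extracted with Trizol and amplified with a NuGEN kit, per the labels' protocols. Nothing in the labels says more of the replicates than that each pools 3 mice, so the p-values measure how pools vary, which may be partly technical.

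Intensities were log2-transformed without pseudocount or further normalization. By the platform annotation, 34945 probe sets name 1 gene, 932 name several and 9160 name none. The gene identifiers of 34741 were found in RefSeq, and 0 symbols changed. The genotype difference was fitted per gene with limma (version 3.58.1, under R 4.3.3) as a two-sided test, with p-values adjusted by Benjamini-Hochberg over 18193 genes and called under 0.05. The fit was tested on simulated data. The number of arrays limits the precision.

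Members, branches and lists were chosen with earlier results of these data known. Every member is named. All 6 values are given for members without overlap, with an unadjusted p under 0.05 or with a difference above 0.5 in size, and for Hspa5, Atf6, Xbp1, Ern1, Eif2ak3, Atf4 and Ddit3. The 3 genes of smallest p are named in each further list. Protein sequences were not used here. Figures were drawn with matplotlib 3.10.9.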

Additional observations from a re-analysis of the deposited data

How the results depend on the processing

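Alternatives were quantile normalization, a replicate block, centring on the median, an offset of 100, dim genes left out, the mean or median of a gene's probe sets, a trended and robust prior, array weights, a Y-linked covariate, each array left out and, added after the data were seen, both genotypes without replicate 3. Members past the threshold over all genes numbered 0 under all 17. Of the members, 22 kept their sign throughout. The chaperone median stayed between -0.50 (Y-linked covariate) and -0.29, and the PERK and ATF4 median between -0.20 and 0.10 (mean of probe sets). Across genes above background, the deviations of same-numbered arrays correlated at 0.165, -0.01 and 0.161. Those of differently numbered arrays correlated at -0.199 to 0.072. The labels name no pairs, so the main fit took none, and whether equal numbers mark pairs was not settled. The replicate block left all differences as they were, with 6 members lower and 1 higher at an unadjusted p under 0.05 and 694 and 560 genes higher and lower in all.

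Genes called higher were 1 with the offset, without dim genes or with array weights, and 2 with the trended prior; genes called lower were 0 to 1 without 1 array. At an unadjusted p under 0.05, 384 genes were higher with the covariate and 904 lower with array weights. Members lower at that level were 3 with median centring, 10 with the trended prior or array weights, and 3 to 9 without 1 array; members higher were 0 with quantile normalization, centring or the covariate, and 0 to 1 without 1 array. Members entirely below numbered 6 with median centring (4.63% of all genes are), which raises klotho-deficient replicate 3, the array of lowest median signal, and 19 without replicate 3 of both genotypes (where 20.7% of all genes are); members entirely above were 2 with quantile normalization or probe-set means, 3 without both replicates 3 (where 21.9% of all genes are), and 1 to 5 without 1 array (10.4% to 14.7% of all genes).

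The cause of the sign changes was not tested. Signs turned for Dnajb9 (0.00 with quantile normalization, -0.16 to 0.10 without 1 array), Atf6 (-0.04 without both replicates 3, -0.08 to 0.39), Syvn1 (-0.00 with array weights, -0.21 with the covariate, -0.05 to 0.17), Sel1l (0.07 with probe-set means, -0.19 to 0.09), Edem1 (0.01 with the covariate), Derl1 (-0.01 and -0.00 with probe-set means and medians), Derl3 (-0.01 with the offset, -0.60 to 0.89), Sec61a1 (0.00 with array weights, 0.01 with the covariate, 0.05 without both replicates 3), Selenos (-0.17 to 0.02), Eif2ak3 (0.11 with probe-set means), Atf4 (0.10 and 0.05 with means and medians, -0.22 to 0.06), Trib3 (0.08 and 0.08, -0.25 to 0.03) and Asns (0.06 and 0.06, 0.08 without both replicates 3, -0.13 to 0.06), and outside the members for Ero1b (0.21 with medians). Without dim genes Derl3 has no value.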
